A study of Mus musculus with 2 samples.

Results

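Thbs1, Thbs2, Cd47, Thbd, Procr, Tfpi and Vwf, which encode thrombospondins, their receptor and regulators of blood coagulation, were followed through the cells of embryonic mouse brain. They were chosen by gene symbol and make up 7 of the 31253 genes in the count tables, and all 7 had unique molecular identifier (UMI) counts in both libraries. The choice was made with results of these data known, so every level and ratio of the 7 genes is a description. The brains were taken at embryonic stage E12.5, and cells were enriched with CD31 microbeads and read by 3′ single-cell RNA sequencing. The Foxq1iECKO library came from brains whose genotype is labelled Foxq1iECKO and the Foxq1flox/flox library from brains whose genotype is labelled Foxq1flox/flox. FOXQ1 is a forkhead transcription factor. The sources used here name neither the Cre driver, nor the time or agent of induction, nor how many embryos were pooled. With 1 library per genotype there was no test between genotypes, and embryo, collection and genotype cannot be told apart.

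Thrombospondins are large secreted matrix proteins. Thrombospondin-1 and thrombospondin-2 inhibit angiogenesis, in part through the receptor CD36, and CD47 is a further receptor of thrombospondin-1. Thrombomodulin, encoded by Thbd, binds thrombin on the vessel surface and turns it from a clotting enzyme into an activator of protein C, and the protein C receptor, encoded by Procr, presents protein C for this step. Tissue factor pathway inhibitor (Tfpi) blocks the start of coagulation, and von Willebrand factor (Vwf) is stored in endothelial cells and platelets, carries factor VIII and tethers platelets to injured vessel walls.

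The Foxq1iECKO library held 72445925 UMIs over 15108 barcodes and the Foxq1flox/flox library 76580165 UMIs over 15837 barcodes. After filtering and removal of predicted doublets, 12557 Foxq1iECKO cells and 13376 Foxq1flox/flox cells were used, and 189 cell barcodes occurred in both libraries. The labels call the cells endothelial, but the endothelial-like class held 1631 Foxq1iECKO cells (12.99%) and 2305 Foxq1flox/flox cells (17.2%), and the rest were mesenchymal, mural, blood, neural and unnamed cells. Foxq1, the targeted gene, stood at 150 CPM (UMIs of a gene summed over the class and scaled by the class total) in Foxq1iECKO and 437 CPM in Foxq1flox/flox endothelial-like cells, a log2 ratio of -1.54 [-1.62, -1.46]. The deleted part of the gene was not placed against the 3′ tags. Log2 ratios are Foxq1iECKO over Foxq1flox/flox, and brackets hold 95% counting intervals, which do not cover differences between embryos. A gene was past the size rule when it differed at least 1.5-fold either way and the interval excluded equality, and it was measured at 10 CPM or more in at least 1 library.

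The 7 genes were spread over different cells of the tissue. Thbs1 was highest in megakaryocyte-like cells and Thbs2 in a cluster led by the bone genes Ibsp and Sp7. Cd47 was highest in a leukocyte cluster led by H2-Aa and in megakaryocyte-like cells, whose levels overlapped. Thbd was highest in a mesenchymal cluster led by Cldn11 and Gjb6. Procr was highest in an endothelial cluster, and Vwf in megakaryocyte-like cells followed by an endothelial cluster. Tfpi was highest in the Zfp366 endothelial cluster (259 CPM in the Foxq1iECKO and 297 CPM in the Foxq1flox/flox library) and in an unnamed cluster led by Rgs5 and Abcc9 with endothelial and pericyte genes together (263 CPM in the Foxq1iECKO and 259 CPM in the Foxq1flox/flox library), whose levels overlapped. Levels are set against each other within a gene only, since 3′ counts of different genes carry different capture rates.

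**Figure D1:**
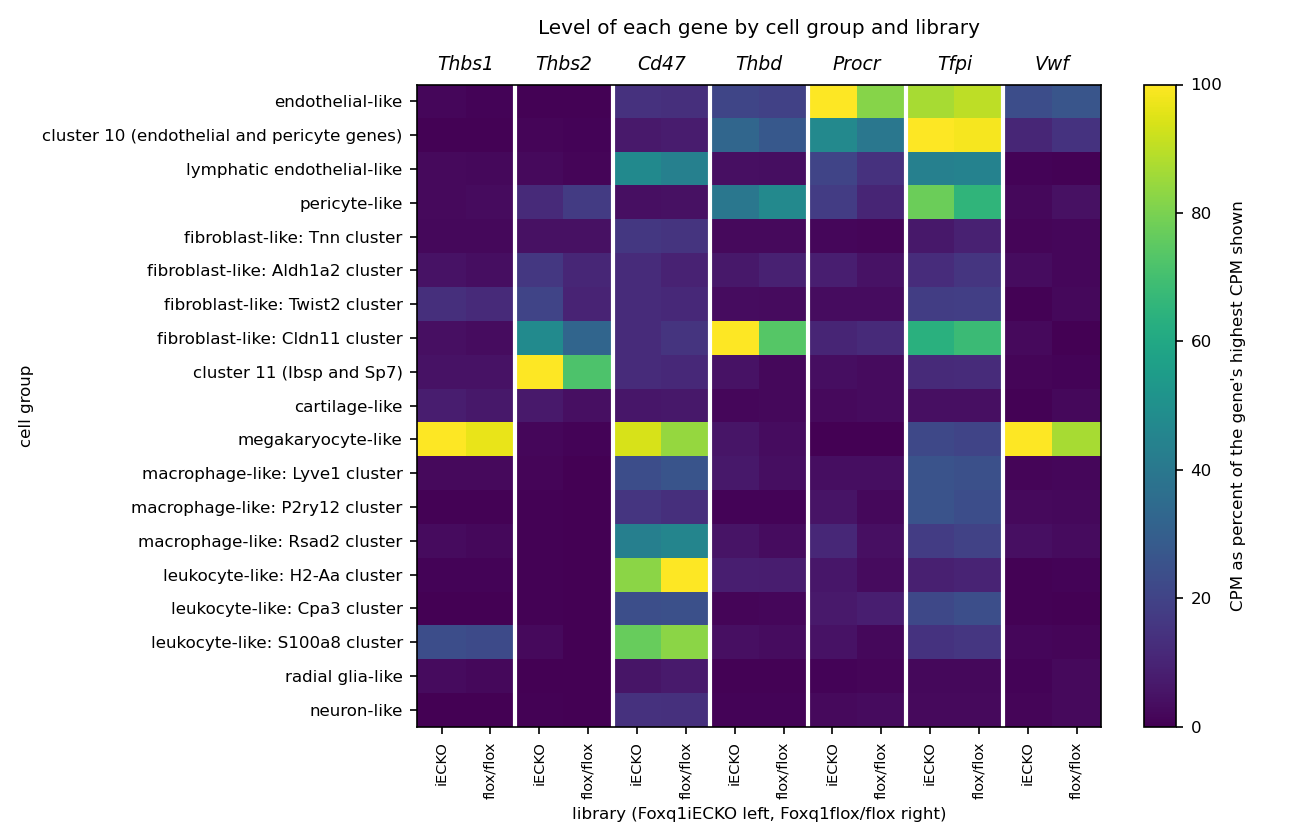
Level of each gene in each cell group (rows) and library (columns), in CPM as a percent of that gene's highest value, with the Foxq1iECKO library left of the Foxq1flox/flox library. In both libraries Procr is brightest in endothelial-like cells, Tfpi in cluster 10 with endothelial-like cells next, Thbs1 in megakaryocyte-like cells and Thbs2 in the Ibsp cluster.

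Thbs1 (ENSMUSG00000040152) encodes thrombospondin-1 and lies at chr2:118111876-118127133 on the plus strand of mm10, with up to 22 exons in the GENCODE vM21 annotation. The antisense gene Gm29233 overlaps it on the other strand. No source used here says whether the counting used strand, so reads of the pair may not be told apart. In megakaryocyte-like cells, the precursors of the platelets that store the protein, Thbs1 stood at 6659 CPM in the Foxq1iECKO library (1743 UMIs in 50 cells) and 6443 CPM in the Foxq1flox/flox library (2371 UMIs in 74 cells). The log2 ratio there was 0.05 [-0.04, 0.14]. The order of the clusters below it was the same in both libraries for the leading places. A cluster led by the neutrophil genes S100a8 and S100a9 held 1571 CPM in the Foxq1iECKO and 1504 CPM in the Foxq1flox/flox library. The Twist2 mesenchyme held 907 CPM in the Foxq1iECKO and 800 CPM in the Foxq1flox/flox library. Cartilage-like cells followed at 543 CPM in the Foxq1iECKO and 425 CPM in the Foxq1flox/flox library. The levels of these 4 clusters did not overlap between neighbours in the order, whereas the Aldh1a2 and Cldn11 mesenchyme further down overlapped.

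In endothelial-like cells Thbs1 was the gene of the 7 that differed most by size. It stood at 121 CPM in the Foxq1iECKO library (1227 UMIs) and 66.1 CPM in the Foxq1flox/flox library (1027 UMIs), a 1.83-fold difference with a log2 ratio of 0.87 [0.75, 1.00]. Thbs1 was 1 of 6 measured members past the size rule, where 2.05% of all 8005 measured genes were past it and the median gene had a log2 ratio of -0.02. Thbs1 was also higher by size in the endothelial cluster led by Tmem255a and Cyp1a1, at 167 CPM in the Foxq1iECKO and 106 CPM in the Foxq1flox/flox library (1.56% of measured genes past the rule there). In the Zfp366 endothelial cluster it stood at 29.4 CPM in the Foxq1iECKO and 24.4 CPM in the Foxq1flox/flox library, inside the rule. A small cluster with endothelial and haemoglobin genes, kept apart from the class, had 129 CPM in the Foxq1iECKO and 66.8 CPM in the Foxq1flox/flox library (7.18% of genes past the rule). Its 12 pericyte markers summed to 1518 CPM in the Foxq1iECKO and 586 CPM in the Foxq1flox/flox library and its 12 platelet markers to 10.9 CPM in the Foxq1iECKO and 94.5 CPM in the Foxq1flox/flox library, and their part in the ratio was not tested.

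A Thbs1 UMI was found in a minority of endothelial-like cells. This share depends on the depth of a cell, so it does not place the difference in particular cells. With each cell thinned to 2000 UMIs, a Thbs1 UMI was found in 12.2% [10.5, 14.1] of Foxq1iECKO and 8.74% [7.52, 10.1] of Foxq1flox/flox endothelial-like cells. Thinning left out 326 Foxq1iECKO and 360 Foxq1flox/flox cells. Without thinning the share was 21.7% in the Foxq1iECKO and 19.3% in the Foxq1flox/flox library. In neuron-like cells, taken as a measure of free RNA, the thinned shares were 3.04% in the Foxq1iECKO and 2.47% in the Foxq1flox/flox library, and the levels 20.5 CPM in the Foxq1iECKO and 14.1 CPM in the Foxq1flox/flox library. The median depth was 3977 UMIs in Foxq1iECKO and 4234 UMIs in Foxq1flox/flox endothelial-like cells, against 3382.5 UMIs in Foxq1iECKO and 3378 UMIs in Foxq1flox/flox neuron-like cells. Cells with at least 3 Thbs1 UMIs after thinning were 1.84% of the Foxq1iECKO and 0.566% of the Foxq1flox/flox cells. At 5 or more UMIs the shares were 0.613% in the Foxq1iECKO library and 0 of 1945 cells in the Foxq1flox/flox library, with an exact interval that reaches 0.189%. The cell with the most Thbs1 held 37 UMIs in the Foxq1iECKO and 12 in the Foxq1flox/flox library, and without these cells the log2 ratio was 0.85.

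**Figure D2:**
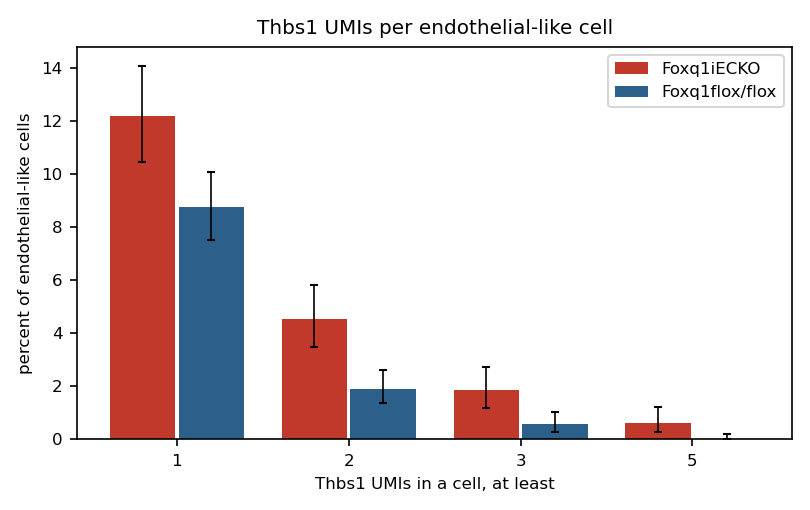
Percent of endothelial-like cells, each thinned to 2000 UMIs, that held at least 1, 2, 3 or 5 Thbs1 UMIs, with exact 95% binomial intervals. The Foxq1iECKO share is above the Foxq1flox/flox share at each step, at 12.2% of Foxq1iECKO and 8.74% of Foxq1flox/flox cells for at least 1 UMI.

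Clustering the endothelial-like cells again put most Thbs1 UMIs in a subcluster led by the interferon-induced genes Gbp2 and Iigp1. It held 80.3% of the Foxq1iECKO and 63.4% of the Foxq1flox/flox Thbs1 UMIs of the class. Thbs1 was among the leading genes of that subcluster, so its high level there is part of how the cells were grouped. The subcluster held 26.2% [24.1, 28.4] of the Foxq1iECKO and 18.7% [17.2, 20.4] of the Foxq1flox/flox endothelial-like cells, and its cells were deep, at a median of 9095 UMIs in the Foxq1iECKO and 10419 UMIs in the Foxq1flox/flox library. Within it Thbs1 stood at 229 CPM in the Foxq1iECKO and 138 CPM in the Foxq1flox/flox library, a log2 ratio of 0.73 [0.58, 0.87] (2.48% of measured genes past the rule). Both barrier-type subclusters were inside the rule. In the one led by Foxq1 and Synm Thbs1 stood at 28.5 CPM in the Foxq1iECKO and 19.4 CPM in the Foxq1flox/flox library, with a ratio of 0.55 [0.05, 1.04]. In the one led by Fam13a and Cxcl12 it stood at 8.86 CPM in the Foxq1iECKO library (4 UMIs) and 15.4 CPM in the Foxq1flox/flox library (10 UMIs), with a ratio of -0.79 [-2.92, 1.00]. The ratio was below 0 in 4 of the 7 subclusters, with intervals that included 0, among them -0.27 [-0.71, 0.16] in the Gja5 and Aqp1 subcluster. The Foxq1 and Synm subcluster held 256 Foxq1iECKO (15.7% of the class) and 614 Foxq1flox/flox cells (26.6%). The targeted gene Foxq1 led it, so Foxq1 is part of how these cells were grouped. Foxq1 was also a leading gene of the Rgs5 and Abcc9 cluster, kept out of the class (818 Foxq1iECKO and 469 Foxq1flox/flox cells). The part of this grouping in the ratios, that of Foxq1 included, was not tested.

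The pooled endothelial ratio of Thbs1 moved with the mix of subclusters. With the 7 subclusters weighted equally it was 0.26, and without the Gbp2 and Iigp1 subcluster it was also 0.26, both inside the rule. Adding the cluster that held endothelial and pericyte genes together gave 0.63. A gate on endothelial markers cell by cell gave 0.54, inside the rule. The 12 platelet markers summed to 8.89 CPM in Foxq1iECKO and 15.97 CPM in Foxq1flox/flox endothelial-like cells, against 18342 CPM in Foxq1iECKO and 16890 CPM in Foxq1flox/flox megakaryocyte-like cells. Gp1ba was at 0 in endothelial-like cells of both libraries. Without the cells that held a platelet marker UMI (57 in the Foxq1iECKO and 89 in the Foxq1flox/flox library) the ratio was 0.86.

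Outside the endothelium Thbs1 was inside the rule in the large classes. In fibroblast-like cells it stood at 401 CPM in the Foxq1iECKO and 432 CPM in the Foxq1flox/flox library, a log2 ratio of -0.11 [-0.17, -0.05]. Of the 4 clusters in that class, the Twist2 cluster held 56.6% of the Foxq1iECKO and 69.9% of the Foxq1flox/flox Thbs1 UMIs, and it made up 21.9% of the Foxq1iECKO and 31.6% of the Foxq1flox/flox cells. Within the Twist2, Aldh1a2 and Cldn11 clusters the ratios were 0.18 [0.11, 0.25], 0.33 [0.18, 0.47] and 0.21 [0.02, 0.41], and in the Tnn cluster -0.10 [-0.30, 0.09]. Pericyte-like cells had 177 CPM in the Foxq1iECKO and 201 CPM in the Foxq1flox/flox library. Macrophage-like cells had 128 CPM in the Foxq1iECKO and 119 CPM in the Foxq1flox/flox library, and the Lyve1 and F13a1 cluster held 73.1% of the Foxq1iECKO and 73.5% of the Foxq1flox/flox UMIs of the class. In 2 further clusters of at least 50 cells in each library, Thbs1 was past the rule upward. The Neurod6 neurons had 24.8 CPM in the Foxq1iECKO and 10.4 CPM in the Foxq1flox/flox library (5.56% of genes past the rule), and the Cpa3 leukocytes had 16.05 CPM in the Foxq1iECKO and 6.29 CPM in the Foxq1flox/flox library (5.33% of genes). The Neurod6 neurons are part of the neuron-like class taken above as a measure of free RNA. The Cpa3 levels lay below the neuron-like level in both libraries. Neither difference was read as expression in those cells, and whether either reflects free RNA was not tested. The other neuron-like cluster, led by Pou4f1 and Ina, had 15.1 CPM in the Foxq1iECKO and 16.2 CPM in the Foxq1flox/flox library. Radial glia-like cells had 195 CPM in the Foxq1iECKO and 154 CPM in the Foxq1flox/flox library. In the skeletal muscle-like cluster, of 49 Foxq1iECKO and 46 Foxq1flox/flox cells, Thbs1 was past the rule downward, at 39.4 CPM in the Foxq1iECKO library (12 UMIs) and 92.96 CPM in the Foxq1flox/flox library (25 UMIs), -1.24 [-2.37, -0.19]. The share over all genes was not taken in this small cluster, and Cd47 was past the rule upward there.

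Thbs2 (ENSMUSG00000023885) encodes thrombospondin-2 and lies at chr17:14665500-14694235 on the minus strand of mm10, with up to 22 exons. It was a mesenchymal gene in these libraries. The Ibsp and Sp7 cluster, which was left unnamed and had Thbs2 among its leading genes, held 478 CPM in the Foxq1iECKO and 345 CPM in the Foxq1flox/flox library. The Cldn11 cluster held 229 CPM in the Foxq1iECKO and 157 CPM in the Foxq1flox/flox library. These 2 clusters came first in the order without overlap, and the Twist2, pericyte-like and Aldh1a2 clusters after them overlapped. In endothelial-like cells there were 32 Thbs2 UMIs (3.16 CPM) in the Foxq1iECKO and 41 (2.64 CPM) in the Foxq1flox/flox library, under the floor for a measured gene. The thinned share of endothelial-like cells with a Thbs2 UMI was 0.613% in the Foxq1iECKO and 0.463% in the Foxq1flox/flox library, against 0.468% in Foxq1iECKO and 0.159% in Foxq1flox/flox neuron-like cells. The counting intervals of these shares overlapped, so no endothelial expression was read from them.

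The stretch before the annotated start of Thbs2 is shown because this gene was past the size rule in more classes than any other member. It covers 250 bases at chr17:14694263-14694512 on the minus strand (RefSeq, GRCm38.p6), 5′ to 3′. Capitals mark TTTATA, which is TATAAA read on the other strand, 126 bases before the RefSeq start, and GGGTGG, which is CCACCC read on the other strand, 30 bases before it.
Thbs2: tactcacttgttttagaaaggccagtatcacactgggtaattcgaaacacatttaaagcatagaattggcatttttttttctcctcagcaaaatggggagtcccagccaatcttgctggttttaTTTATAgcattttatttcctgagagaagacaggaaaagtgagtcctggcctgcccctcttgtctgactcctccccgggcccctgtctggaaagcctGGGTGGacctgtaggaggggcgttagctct
The letters TATAAA on either strand occur in 12.4% of 32851 promoters of the same length, and CCACCC, a core of sites bound by KLF factors, in 28.1%. A match of letters is a description and was not tied to binding in these data.

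Thbs2 was higher by size in the pooled fibroblast-like cells of the Foxq1iECKO library. It stood at 102 CPM in the Foxq1iECKO library (1180 UMIs) and 54.6 CPM in the Foxq1flox/flox library (638 UMIs), a log2 ratio of 0.91 [0.77, 1.05]. Thbs2 and Thbd were the 2 of 5 measured members past the rule in this class, where 2.40% of all measured genes were past it. Cluster by cluster, Thbs2 was past the rule in the Twist2 cluster (98.1 CPM in the Foxq1iECKO and 47.1 CPM in the Foxq1flox/flox library, ratio 1.06 [0.79, 1.32], 4.73% of genes past the rule). It was also past it in the Aldh1a2 cluster, at 78.1 CPM in the Foxq1iECKO and 52.0 CPM in the Foxq1flox/flox library (0.59 [0.28, 0.89], 5.73% of genes). In the Cldn11 and Ibsp clusters the ratios were 0.55 [0.31, 0.78] and 0.47 [0.33, 0.61], under 1.5-fold. Without the Cldn11 cluster the ratio of the class was 0.58, just under 1.5-fold. The Tnn and Mab21l2 cluster had 20.7 CPM in the Foxq1iECKO and 21.4 CPM in the Foxq1flox/flox library.

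Cartilage-like cells had 31.8 CPM of Thbs2 in the Foxq1iECKO and 20.2 CPM in the Foxq1flox/flox library, 0.65 [0.32, 0.98], the only 1 of 5 measured members past the rule there (3.36% of genes). Lymphatic endothelial-like cells had 12.6 CPM in the Foxq1iECKO library (35 UMIs) and 6.71 CPM in the Foxq1flox/flox library (20 UMIs), 1 of 6 measured members past the rule (3.81% of genes). Pericyte-like cells went the other way, at 56.3 CPM in the Foxq1iECKO and 83.9 CPM in the Foxq1flox/flox library, -0.58 [-1.03, -0.12], a fold just under the rule. The 15 mesenchyme markers summed to 3199 CPM in Foxq1iECKO and 4758 CPM in Foxq1flox/flox pericyte-like cells. Macrophage-like cells held 48 UMIs in the Foxq1iECKO and 6 in the Foxq1flox/flox library, below the floor in both, where the mesenchyme markers summed to 589.6 CPM in the Foxq1iECKO and 206 CPM in the Foxq1flox/flox library. The part of these markers in the Thbs2 values was not tested. Over all cells pooled, Thbs2 stood at 46.0 CPM in the Foxq1iECKO and 22.7 CPM in the Foxq1flox/flox library. The Ibsp cluster, where Thbs2 was highest, had 603 Foxq1iECKO and 383 Foxq1flox/flox cells.

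**Figure D3:**
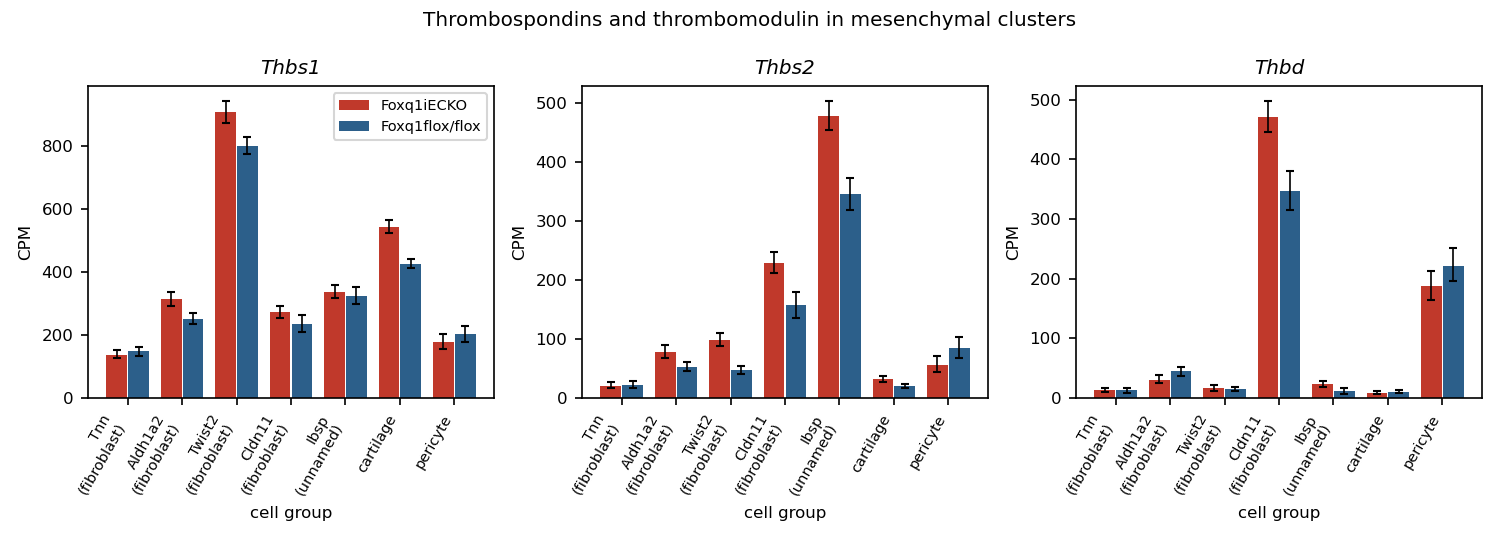
CPM of Thbs1, Thbs2 and Thbd in 5 mesenchymal clusters, cartilage-like and pericyte-like cells, with the Foxq1iECKO bar left of the Foxq1flox/flox bar and exact 95% Poisson intervals. Thbs1 peaks in the Twist2 cluster, Thbs2 in the Ibsp cluster and Thbd in the Cldn11 cluster in both libraries.

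Cd47 (ENSMUSG00000055447) lies at chr16:49800533-49915010 on the plus strand of mm10, with up to 13 exons. Its product binds thrombospondin-1 and, through SIRPα on phagocytes, acts as a signal that protects cells from engulfment. Cd47 was found in every class. The H2-Aa and Trbc2 leukocytes held 815 CPM in the Foxq1iECKO and 984 CPM in the Foxq1flox/flox library, megakaryocyte-like cells 925 CPM in the Foxq1iECKO and 829 CPM in the Foxq1flox/flox library, and the 2 overlapped in the order. Lymphatic endothelial-like cells followed among vessel cells, at 467 CPM in the Foxq1iECKO and 429 CPM in the Foxq1flox/flox library. The other endothelial-like cells had 142 CPM in the Foxq1iECKO and 133 CPM in the Foxq1flox/flox library, close to neuron-like cells at 141 CPM in the Foxq1iECKO and 136 CPM in the Foxq1flox/flox library. Pericyte-like cells were lowest of the large classes, at 40.1 CPM in the Foxq1iECKO and 43.7 CPM in the Foxq1flox/flox library.

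Cd47 was inside the size rule in every class with 50 cells or more in each library. In the smaller skeletal muscle-like class it was past the rule upward, at 72.2 CPM in the Foxq1iECKO and 29.7 CPM in the Foxq1flox/flox library. The share over all genes was not taken there. The endothelial log2 ratio was 0.10 [-0.00025, 0.20], and across the 7 endothelial subclusters the levels ran between 92.3 and 164 CPM in the Foxq1iECKO and between 110 and 155 CPM in the Foxq1flox/flox library. The widest ratio among the large classes was -0.35 [-0.44, -0.26] in leukocyte-like cells, at 486 CPM in the Foxq1iECKO and 619 CPM in the Foxq1flox/flox library. That class had 0 of 4 measured members past the rule (5.18% of genes). It pooled clusters in a mix that differed, and the part of the mix in this ratio was not tested. The H2-Aa cluster, with the highest Cd47 of these leukocyte clusters, was 259 of 659 Foxq1iECKO and 378 of 803 Foxq1flox/flox cells. Cd47 there stood at 815 CPM in the Foxq1iECKO and 984 CPM in the Foxq1flox/flox library. The Cpa3 cluster had 238 CPM in the Foxq1iECKO and 239 CPM in the Foxq1flox/flox library, and the S100a8 cluster 757 and 814 CPM. After thinning, 56.4% of Foxq1iECKO and 55.5% of Foxq1flox/flox lymphatic endothelial-like cells held a Cd47 UMI. The share was 23.1% in Foxq1iECKO and 21.2% in Foxq1flox/flox endothelial-like cells. In neuron-like cells it was 22.6% in the Foxq1iECKO and 21.8% in the Foxq1flox/flox library, so the free RNA share cannot be read from these cells for Cd47.

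Thbd (ENSMUSG00000074743), a gene with a single exon, lies at chr2:148404466-148408188 on the minus strand of mm10. Thrombomodulin is best known from endothelium, but in these libraries the highest Thbd level was in mesenchyme. The Cldn11 and Gjb6 cluster, which fell in the fibroblast-like class, held 472 CPM in the Foxq1iECKO library (1295 UMIs) and 347 CPM in the Foxq1flox/flox library (447 UMIs). A Thbd UMI was found in 39.5% of its thinned Foxq1iECKO and 35.8% of its thinned Foxq1flox/flox cells, against 0.468% of Foxq1iECKO and 0.956% of Foxq1flox/flox neuron-like cells. Pericyte-like cells came next, at 187 CPM in the Foxq1iECKO and 222 CPM in the Foxq1flox/flox library, and the endothelial clusters after them.

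In endothelial-like cells Thbd stood at 98.03 CPM in the Foxq1iECKO (992 UMIs) and 91.9 CPM in the Foxq1flox/flox library (1428 UMIs), a log2 ratio of 0.09 [-0.03, 0.21]. A UMI was found in 18.01% of thinned Foxq1iECKO and 16.5% of thinned Foxq1flox/flox cells. Among subclusters, the Foxq1 and Synm subcluster had 123 CPM in the Foxq1iECKO and 96.0 CPM in the Foxq1flox/flox library, 0.36 [0.13, 0.58]. The unnamed subcluster led by Ccl3 was past the rule, at 116 CPM in the Foxq1iECKO and 76.9 CPM in the Foxq1flox/flox library, 0.59 [0.18, 1.01] (6.39% of genes). Its leading genes were chemokines and collagens, and its 12 pericyte markers summed to 561 CPM in the Foxq1iECKO and 238 CPM in the Foxq1flox/flox library, with Higd1b at 0 in both. Its 12 macrophage markers summed to 281 CPM in the Foxq1iECKO and 175 CPM in the Foxq1flox/flox library and its 15 mesenchyme markers to 1019 CPM in the Foxq1iECKO and 1105 CPM in the Foxq1flox/flox library. The part of these markers in the Thbd ratio was not tested. The other 5 subclusters had intervals that included 0. Lymphatic endothelial-like cells were lower than the other endothelial cells, at 19.1 CPM in the Foxq1iECKO and 17.4 CPM in the Foxq1flox/flox library.

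In fibroblast-like cells Thbd was past the rule, at 127 CPM in the Foxq1iECKO library and 58.6 CPM in the Foxq1flox/flox library, a log2 ratio of 1.11 [0.98, 1.25]. The Cldn11 cluster held 88.7% of the Foxq1iECKO and 65.3% of the Foxq1flox/flox Thbd UMIs of the class. It made up 463 cells (18.4%) of the class in the Foxq1iECKO and 232 cells (9.13%) in the Foxq1flox/flox library. Inside the cluster the ratio was 0.44 [0.29, 0.60], under 1.5-fold. Without the cluster the ratio of the class was -0.28 [-0.58, 0.01], and with the 4 clusters weighted equally it was 0.35. The Aldh1a2 cluster had 30.5 CPM in the Foxq1iECKO and 44.1 CPM in the Foxq1flox/flox library, and the Twist2 and Tnn clusters had between 12.2 and 15.9 CPM in both. Outside this class, the Ibsp cluster was past the rule for Thbd, at 22.2 CPM in the Foxq1iECKO library (67 UMIs) and 10.9 CPM in the Foxq1flox/flox library (19 UMIs), where 5.25% of genes were past it.

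Macrophage-like cells had 20.6 CPM of Thbd in the Foxq1iECKO library (204 UMIs) and 11.3 CPM in the Foxq1flox/flox library (89 UMIs), 0.88 [0.51, 1.25]. This was 1 of 4 measured members past the rule, with 3.09% of genes past it. Mesenchyme and pericyte markers were also higher in Foxq1iECKO macrophage-like cells, and endothelial markers were lower. The 15 mesenchyme markers summed to 589.6 CPM in the Foxq1iECKO and 206 CPM in the Foxq1flox/flox library (Dpt at 0 in both). The 12 pericyte markers summed to 80.6 CPM in the Foxq1iECKO and 38.8 CPM in the Foxq1flox/flox library (Higd1b at 0 in both). The 18 endothelial markers summed to 210 CPM in the Foxq1iECKO and 263 CPM in the Foxq1flox/flox library. The part of these markers in the Thbd ratio of macrophage-like cells was not tested. The Lyve1 and F13a1 cluster held 30.1 CPM in the Foxq1iECKO and 16.8 CPM in the Foxq1flox/flox library, 0.84 [0.42, 1.28] (4.92% of genes). Without it Thbd was below the floor in the rest of the class, with a ratio of 0.66. The microglial cluster led by P2ry12 was below the floor, at 3.92 CPM in the Foxq1iECKO and 4.73 CPM in the Foxq1flox/flox library.

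Procr (ENSMUSG00000027611) and Tfpi (ENSMUSG00000027082) were the members for which an endothelial cluster came first in the order. For Tfpi that cluster overlapped the Rgs5 and Abcc9 cluster. Procr lies at chr2:155751117-155755471 on the plus strand of mm10, with up to 4 exons, and Tfpi at chr2:84432855-84476775 on the minus strand, with up to 10 exons. Their starts are shown because the levels of the pair followed each other across clusters (r = 0.81). Thbd followed Tfpi more closely (0.83) but had no promoter entry. The Procr stretch covers 150 bases at chr2:155750967-155751116 on the plus strand and the Tfpi stretch 234 bases at chr2:84476776-84477009 on the minus strand (RefSeq, GRCm38.p6), both 5′ to 3′.
Procr: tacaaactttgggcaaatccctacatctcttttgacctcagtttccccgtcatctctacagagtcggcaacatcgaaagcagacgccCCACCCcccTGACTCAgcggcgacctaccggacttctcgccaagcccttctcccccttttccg
Tfpi: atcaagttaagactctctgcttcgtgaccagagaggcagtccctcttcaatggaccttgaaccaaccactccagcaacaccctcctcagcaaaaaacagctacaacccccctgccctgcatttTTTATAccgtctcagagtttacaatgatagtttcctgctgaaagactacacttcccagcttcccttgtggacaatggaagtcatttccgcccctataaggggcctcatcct
Capitals in Procr mark CCACCC, 163 bases before the RefSeq start, and TGACTCA, a form of the AP-1 letters TGANTCA, 154 bases before it. Capitals in Tfpi mark TTTATA, which is TATAAA on the other strand, 127 bases before the start. TGANTCA occurs in 6.75% of promoters of this kind, CCACCC in 28.1% and TATAAA in 12.4%. A second RefSeq start of Tfpi held the ETS letters AGGAAG on the other strand at 92 and 41 bases before it, letters found in 29.5% of promoters. Of the 7 genes, 4 had a promoter entry, and Thbs1, Thbd and Vwf did not. The Procr and Tfpi stretches shared no motif of the 6 searched, which says nothing of the factors themselves.

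Procr stood at 99.2 CPM in Foxq1iECKO endothelial-like cells (1004 UMIs) and 81.3 CPM in Foxq1flox/flox endothelial-like cells (1263 UMIs), a log2 ratio of 0.29 [0.17, 0.41], inside the rule. Over 21 alternatives the ratio ranged from 0.10 to 0.41. It was 0.10 [-0.01, 0.21] with the Rgs5 and Abcc9 cluster added and 0.14 [-0.03, 0.31] without the Gbp2 and Iigp1 subcluster. The class held 59.1% of all Foxq1iECKO and 71.6% of all Foxq1flox/flox Procr UMIs. The Rgs5 and Abcc9 cluster, kept out of the class, was 6.51% of the Foxq1iECKO and 3.51% of the Foxq1flox/flox cells and held a further 20.8% of the Foxq1iECKO and 10.2% of the Foxq1flox/flox Procr UMIs, so these shares depend on which cluster the cells fell in. Lymphatic endothelial-like cells had 20.5 CPM in the Foxq1iECKO and 14.1 CPM in the Foxq1flox/flox library, and pericyte-like cells 17.7 CPM in the Foxq1iECKO and 10.3 CPM in the Foxq1flox/flox library. Megakaryocyte-like cells had 0 Procr UMIs, which allows up to 11.5 CPM in the Foxq1iECKO and 8.15 CPM in the Foxq1flox/flox library. A Procr UMI was found in 14.6% of thinned Foxq1iECKO and 11.7% of thinned Foxq1flox/flox endothelial-like cells, against 0.468% of Foxq1iECKO and 0.319% of Foxq1flox/flox neuron-like cells.

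Among endothelial subclusters Procr was highest in the Gbp2 and Iigp1 cells, at 129 CPM in the Foxq1iECKO and 107 CPM in the Foxq1flox/flox library. It was lowest in the cycling subcluster led by Aspm and the Fam13a and Cxcl12 subcluster, between 35.7 and 48.0 CPM in both libraries. The Gja5 and Aqp1 subcluster was past the rule, at 101 CPM in the Foxq1iECKO library (124 UMIs) and 60.2 CPM in the Foxq1flox/flox library (96 UMIs), 0.75 [0.35, 1.15] (4.56% of genes). Gja5 marks arterial endothelium, but the subcluster stayed unnamed. In the Foxq1 and Synm subcluster Procr stood at 83.2 CPM in the Foxq1iECKO and 88.6 CPM in the Foxq1flox/flox library.

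Of the 6 measured members, Tfpi had the endothelial ratio nearest to 0. Endothelial-like cells had 229 CPM in the Foxq1iECKO library (2313 UMIs) and 237 CPM in the Foxq1flox/flox library (3676 UMIs), a log2 ratio of -0.05 [-0.13, 0.03], and the gene was past the rule in no class or cluster with 50 cells or more in each library. It was spread more widely than Procr. Pericyte-like cells had 204 CPM in the Foxq1iECKO and 172 CPM in the Foxq1flox/flox library, the Cldn11 mesenchyme 167 CPM in the Foxq1iECKO and 179 CPM in the Foxq1flox/flox library. Lymphatic endothelial-like cells had 114 CPM in the Foxq1iECKO and 117 CPM in the Foxq1flox/flox library. The endothelial-like class held 33.7% of the Foxq1iECKO and 49.8% of the Foxq1flox/flox Tfpi UMIs, and the Rgs5 and Abcc9 cluster a further 28.9% of the Foxq1iECKO and 16.1% of the Foxq1flox/flox Tfpi UMIs. A Tfpi UMI was found in 35.6% of thinned Foxq1iECKO and 36.7% of thinned Foxq1flox/flox endothelial-like cells, against 1.05% of Foxq1iECKO and 1.83% of Foxq1flox/flox neuron-like cells.

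Within the endothelium Tfpi ran between 189 and 295 CPM over the 7 Foxq1iECKO subclusters and between 205 and 301 CPM over the 7 Foxq1flox/flox subclusters. The Foxq1 and Synm subcluster was at the low end, at 189 CPM in the Foxq1iECKO and 214 CPM in the Foxq1flox/flox library. The Fam13a and Cxcl12 subcluster was near the high end, at 295 CPM in the Foxq1iECKO and 287 CPM in the Foxq1flox/flox library.

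Vwf (ENSMUSG00000001930) lies at chr6:125546774-125686679 on the plus strand of mm10, with up to 52 exons. Its highest level was in megakaryocyte-like cells, at 138 CPM in the Foxq1iECKO library (36 UMIs) and 120 CPM in the Foxq1flox/flox library (44 UMIs). Of these cells, 22.6% in the Foxq1iECKO and 20.8% in the Foxq1flox/flox library held a Vwf UMI after thinning. Endothelial-like cells had 32.4 CPM in the Foxq1iECKO library (328 UMIs) and 36.4 CPM in the Foxq1flox/flox library (565 UMIs), a log2 ratio of -0.17 [-0.37, 0.03]. A Vwf UMI was found in 6.05% of thinned Foxq1iECKO and 6.63% of thinned Foxq1flox/flox endothelial-like cells, against 0.585% of Foxq1iECKO and 0.398% of Foxq1flox/flox neuron-like cells. Lymphatic endothelial-like cells were deeper, at a median of 9706 UMIs in the Foxq1iECKO and 9440 UMIs in the Foxq1flox/flox library. They held 4 Vwf UMIs in the Foxq1iECKO and 2 in the Foxq1flox/flox library.

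Vwf varied among endothelial subclusters. The Fam13a and Cxcl12 subcluster had 70.9 CPM in the Foxq1iECKO and 89.2 CPM in the Foxq1flox/flox library, and the immediate early gene subcluster led by Egr1 had 73.4 CPM in the Foxq1iECKO and 52.6 CPM in the Foxq1flox/flox library. The cycling subcluster had 16.5 CPM in the Foxq1iECKO and 20.6 CPM in the Foxq1flox/flox library. In the Ccl3 subcluster Vwf was past the rule downward, at 18.2 CPM in the Foxq1iECKO library (17 UMIs) and 40.2 CPM in the Foxq1flox/flox library (47 UMIs), -1.14 [-2.03, -0.31] (6.39% of genes). The 18 endothelial markers there summed to 6920 CPM in the Foxq1iECKO and 8294 CPM in the Foxq1flox/flox library. The 12 pericyte markers summed to 561 CPM in the Foxq1iECKO and 238 CPM in the Foxq1flox/flox library. The part of these markers in the Vwf ratio was not tested. The Foxq1 and Synm subcluster had 24.7 CPM in the Foxq1iECKO and 34.8 CPM in the Foxq1flox/flox library, -0.49 [-0.99, -0.02], inside the rule (4.38% of genes past it). Procr was also counted in thinned cells with and without a Vwf UMI, as a description. Among Foxq1iECKO endothelial-like cells, Procr was found in 22.8% of 79 cells with Vwf and 14.0% of 1226 without. Among Foxq1flox/flox endothelial-like cells it was found in 24.03% of 129 cells with Vwf and 10.8% of 1816 without.

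**Figure D4:**
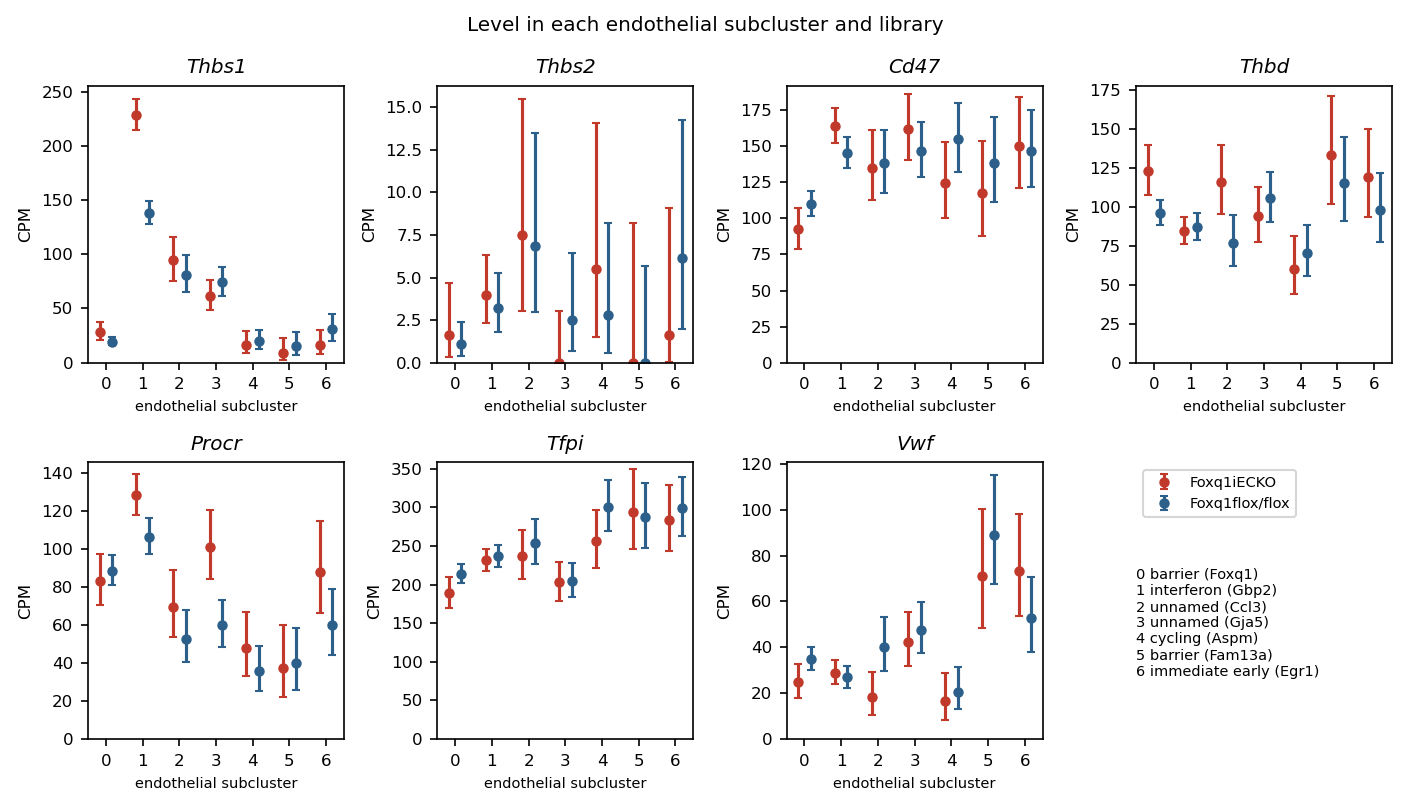
CPM of the 7 genes in the 7 endothelial subclusters, with the Foxq1iECKO point left of the Foxq1flox/flox point and exact 95% Poisson intervals. Thbs1 peaks in the Gbp2 and Iigp1 subcluster, at 229 CPM in the Foxq1iECKO and 138 CPM in the Foxq1flox/flox library, while Tfpi stays between 189 and 301 CPM throughout.

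Across the 8 classes plotted, the genotype ratios of the 7 genes were mostly small. No measured member was past the rule in pericyte-like cells (0 of 6, with 6.36% of genes past it) or megakaryocyte-like cells (0 of 5, with 6.90% of genes). The cluster with endothelial and pericyte genes together, of 818 Foxq1iECKO and 469 Foxq1flox/flox cells, also had 0 of 6 past the rule (2.88% of genes). In that cluster Thbs1 had 50.3 CPM in the Foxq1iECKO and 33.9 CPM in the Foxq1flox/flox library, the widest ratio of the 6 at 0.57.

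**Figure D5:**
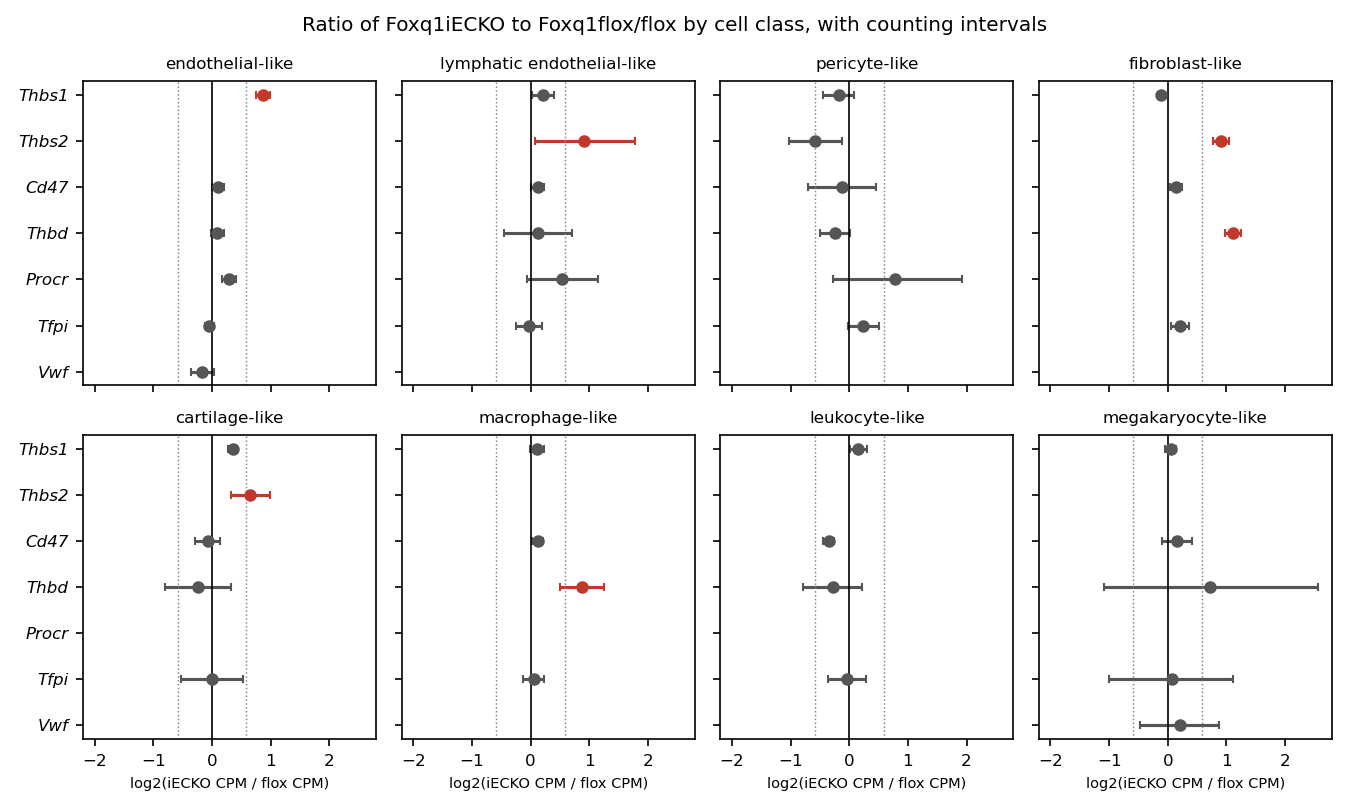
Log2 ratio of CPM, Foxq1iECKO over Foxq1flox/flox, of each measured member in 8 cell classes, with 95% counting intervals, dotted lines at 1.5-fold and red points past the size rule. The red points are Thbs1 in endothelial-like cells (0.87), Thbs2 in fibroblast-like (0.91), cartilage-like (0.65) and lymphatic endothelial-like cells (0.91), and Thbd in fibroblast-like (1.11) and macrophage-like cells (0.88).

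Profiles were compared over 50 points, the 25 clusters of both libraries, by Pearson correlation of log2(CPM + 5) among 11345 genes. Points share libraries and depth, so the correlations are descriptions. Procr ran closest to Esm1 (r = 0.92), a gene of endothelial tip cells, and to Rasip1 (0.91), an endothelial regulator of vessel lumens. Vwf ran closest to Clec1b (0.94), the platelet receptor for podoplanin. Thbs2 ran closest to the collagen gene Col1a2, the collagen-processing gene Pcolce and Aebp1 (0.92 each). Thbd ran closest to the basement membrane genes Lamc1 (0.85), Col4a1 and Col4a2 (0.84 each). Thbs1 had no such close partner, with Zyx, Fhl3 and Ppp1r15b at 0.78. For Cd47 the nearest were Ptpre (0.84), Cd200r1 (0.82) and Dennd4a (0.82), and for Tfpi they were Acot9 (0.88), BC028528 (0.87) and Cd81 (0.86). Between members, Thbd with Tfpi (0.83) and Procr with Tfpi (0.81) were the most alike pairs.

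The other genes of these pathways were read against the 2.05% of measured genes past the rule in endothelial-like cells, so 0 of 4 or 0 of 7 is near that share and is no result about a list. Of 4 measured partners of the protein C pathway that are not members, none was past the rule. They include Cd93, which shares its domain plan with thrombomodulin (1878 CPM in the Foxq1iECKO and 1969 CPM in the Foxq1flox/flox library), the thrombin receptor gene F2r (335 CPM in the Foxq1iECKO and 312 CPM in the Foxq1flox/flox library) and Gas6 (12.3 CPM in the Foxq1iECKO and 18.2 CPM in the Foxq1flox/flox library, log2 ratio -0.57). Of 4 in the tissue factor and clotting factor list, none was past it, and Tfpi2 had 11.5 CPM in the Foxq1iECKO and 14.6 CPM in the Foxq1flox/flox library. Of 7 fibrinolysis genes, none was past it, and Plau, which encodes the plasminogen activator urokinase, had 139 CPM in the Foxq1iECKO and 121 CPM in the Foxq1flox/flox library. The median log2 ratios of these non-members were -0.05, 0.05 and 0.01, beside -0.02 over all measured genes.

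Selp, the P-selectin gene whose product is stored with von Willebrand factor, was past the rule. It had 22.8 CPM in the Foxq1iECKO and 13.4 CPM in the Foxq1flox/flox library, 0.77 [0.49, 1.05], 1 of 6 measured non-members in its list, whose median was -0.05. Among 14 thrombospondin receptors and partners other than Cd47, only Vldlr was past it, at 21.8 CPM in the Foxq1iECKO and 13.8 CPM in the Foxq1flox/flox library, and the median was 0.01. Of 9 genes of the response to flow and KLF factors, Hmox1 was past it (158 CPM in the Foxq1iECKO and 89.8 CPM in the Foxq1flox/flox library), with a median of -0.08. Of 6 other angiogenesis inhibitors, Cxcl10, an interferon-induced chemokine, was past it (144 CPM in the Foxq1iECKO and 81.4 CPM in the Foxq1flox/flox library), with a median of 0.12. Cxcl10 was among the leading genes of the Gbp2 and Iigp1 subcluster. That subcluster held 26.2% of the Foxq1iECKO and 18.7% of the Foxq1flox/flox endothelial-like cells, and its part in the Cxcl10 ratio was not tested. None of the 7 YAP and SRF response genes was past the rule, with a median of 0.23. Ccn2 had 352 CPM in the Foxq1iECKO and 238 CPM in the Foxq1flox/flox library.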

How the data were processed

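E12.5 brain was dissociated enzymatically, cells were enriched on CD31 microbeads and paired with barcoded beads in microwells, and transcripts were tagged with a UMI at the 3′ end, per the labels' protocols. The deposited values are raw counts of UMIs for each gene and barcode. STARsolo 2.7.11b, fastp 0.24.0 and mm10 are named in the submitters' processing notes. The annotation version, the use of strand and the treatment of multi-mapping reads are not given. Groups came from the genotype labels, and the 7 members and all lists were chosen with earlier results of these data known.

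A cell was kept with 500 genes, 1000 UMIs and no more than 20% mitochondrial UMIs. Scrublet (scanpy 1.11.5, expected share 8%) called doublets in each library, and they were removed. After normalization to 10000 UMIs and log transformation, the libraries were clustered together, with no batch correction, from 2000 variable genes, 30 components and 20 neighbours (leidenalg 0.10.2, resolution 1). Endothelial-like cells were then clustered at 0.6. A class name needed 3 markers at 50 CPM and 2-fold above other cells (pseudocount 5 CPM). UMIs were summed per class and library. Levels have exact Poisson, shares exact Clopper-Pearson and ratios exact conditional binomial intervals, which cover counting error only. Limits in CPM from a count of 0 use 3 counts. The design allowed no test, no p-value and no standard error. Shares were taken after thinning to 2000 UMIs per cell. Simulated counts with counting error only were used to check the computation of the size rule. They held no spread between cells or embryos, so they cannot show how the rule behaves between embryos. The members and Foxq1 were always named, with up to 4 other genes per pathway list (those extreme by size, then the most abundant, except a gene that is not reported here) and the 3 genes most like each member, among genes at 20 CPM in a cluster of at least 50 cells per library. Scaling alternatives were TMM (edgeR 4.0.16) and the median of ratios (DESeq2 1.42.0). Calculations used Python 3.11.15 with pandas 2.3.3, numpy 2.4.6, igraph 0.11.9, scipy 1.17.1, matplotlib 3.10.9 and scikit-learn 1.9.0, and R 4.3.3. Gene positions came from GENCODE vM21 and promoters from RefSeq.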

Additional observations from a re-analysis of the deposited data

How the results depend on the processing

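The endothelial log2 ratio of Thbs1 ranged from 0.26 to 0.99 over 21 alternatives and was past the size rule in 17 of them. The number of members past the rule in endothelial-like cells, 1 as reported, was 0 with subclusters weighted equally, with a marker gate per cell, without the interferon and immediate early subclusters (Thbs1 0.35) and without the Gbp2 and Iigp1 subcluster. In fibroblast-like cells it was 2 as reported, 1 with clusters weighted equally and 0 without the Cldn11 cluster, where Thbs2 stood at 0.58 and Thbd reversed to -0.28. In macrophage-like cells it was 1 as reported, 3 with no floor on CPM and 0 without the Lyve1 cluster. The cause of these moves was not tested. Thbs2 in fibroblast-like cells ranged from 0.58 to 1.07, past the rule in 12 of 13 alternatives, and Thbd in macrophage-like cells from 0.65 to 1.24, past it in 11 of 12. Scaling by TMM or the median of ratios shifted ratios by at most 0.03. Of the log2 ratios recomputed, 280 moved by less than the main interval, 41 moved further and 1 reversed. Alternatives that weight fibroblast-like or macrophage-like clusters equally, leave out a cluster, add the haemoglobin cluster or leave out the cell with the most UMIs were chosen after seeing the data. No paired analysis was possible because each genotype has 1 library. Leaving out a replicate was not possible either. Depth limits the levels that rest on few UMIs, among them Vwf in megakaryocyte-like cells (36 in the Foxq1iECKO and 44 in the Foxq1flox/flox library), Thbs2 in endothelial-like cells (32 in the Foxq1iECKO and 41 in the Foxq1flox/flox library) and Thbs1 in the Fam13a and Cxcl12 subcluster (4 in the Foxq1iECKO and 10 in the Foxq1flox/flox library).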
